A study of Mus musculus with 32 samples.

Results

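Neuregulin receptors and GABP transcription factors were examined as 8 genes, found by symbol among the 24952 genes of the count and TPM tables: the ligand gene Nrg1, the receptor genes Egfr, Erbb2, Erbb3 and Erbb4, and the GABP subunit genes Gabpa, Gabpb1 and Gabpb2. Their levels came from laser-captured regions of the tibialis anterior (TA), a hindlimb muscle, of male wild-type C57BL/6JRj mice that were housed singly and ate the AIN93M diet. The regions were either synaptic (neuromuscular junction, NMJ) or extra-synaptic (xNMJ), and the mice were 10 or 30 months old, which gave 4 groups of 8 libraries each, written as 10m or 30m followed by the region. No group carried a transgene or a drug treatment. The synaptic regions were recognized on sections by α-bungarotoxin, a toxin that binds acetylcholine receptors, so that a captured NMJ region holds muscle fiber together with whatever terminal glia, nerve ending and connective tissue lie at the synapse. Median library totals of the NMJ groups were 9605869 counts at 10 months and 9825357 at 30 months, and those of the xNMJ groups were lower, at 6062117 and 6790011. The labels do not say whether libraries with the same number share an animal, and the p-values below measure the spread between these libraries.

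Neuregulin is a growth factor released by motor axons and Schwann cells that acts through ErbB receptor tyrosine kinases. The EGF receptor, ErbB2, ErbB3 and ErbB4 work as pairs: ErbB3 binds neuregulin but has little kinase activity of its own, ErbB2 has kinase activity but no known ligand, and ErbB4 does both. In muscle, neuregulin signaling has been linked to the transcription of acetylcholine receptor genes in the fiber nuclei beneath the synapse, and in Schwann cells ErbB2 with ErbB3 supports survival and myelination. GABP is an ETS transcription factor made of a DNA-binding α subunit (Gabpa) and a β subunit with the activation domain (Gabpb1 or Gabpb2). Its binding core, CCGGAA or TTCCGG on the other strand, is the center of the N-box, an element of synaptic gene promoters, and also occurs in many promoters of mitochondrial genes.

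To show what this core looks like in the genes at issue, 30-base stretches were taken from RefSeq promoter windows (GRCm38.p6, 250 bases before to 50 after a gene's start, written 5′ to 3′ on the gene's strand), with the core in capitals. Chrne, the acetylcholine receptor ε subunit and a textbook N-box gene, is shown beside the GABP genes and Egfr.
Chrne: cccaaacctagcCCGGAActaacaccctcc
Gabpa: gagggtaagtgcTTCCGGgtccctcagcta
Gabpb1: ccctttctcccgCCGGAAcggggctggggg
Gabpb2: gtccgtcccctgCCGGAActatccctcacg
Egfr: tccaccaccaccTTCCGGtcactgcctgct
The Chrne stretch lies at chr11:70619253-70619282 on the minus strand, with the core 76 bases before the gene's start. The Gabpa stretch lies at chr16:84835020-84835049 on the plus strand (core 92 bases before the start), that of Gabpb1 at chr2:126675647-126675676 on the minus strand (72 bases), that of Gabpb2 at chr3:95217975-95218004 on the minus strand (50 bases) and that of Egfr at chr11:16752072-16752101 on the plus strand (119 bases). Starts here are those of RefSeq, and the GENCODE genes Gabpa, Gabpb1 and Tfam begin farther upstream, so that their stretches lie within the GENCODE gene. Of the 6 genes of the set with a window, 5 held the core on either strand, Erbb4 being the fifth and Erbb2 the one without it. Of the N-box genes used here, 1 of 4 with a window held it (Chrne, and not Ache, Musk or Utrn), and of the mitochondrial genes 3 of 6. Among all 27025 genes with a window, 16.7% held it (14.9% of 32851 windows), and a match is a description of these letters, not of binding. Windows for Nrg1, Erbb3, Chrnd and Colq were not analysed here.

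The question put to the data was which parts of this axis differ between synaptic and extra-synaptic regions, and whether age changes them. Of the 8 genes, 6 were tested, having reached a level of 1 CPM (counts scaled to the library total) or more in 8 or more of the 32 libraries. Nrg1 passed this level in 3 libraries and Erbb4 in 0. Only Erbb3 passed the test in a comparison of regions, and it did so at both ages.

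Erbb3 (ENSMUSG00000018166, GRCm38 chr10:128567523-128589652, minus strand) encodes the neuregulin-binding receptor. In TPM, an abundance scaled for transcript length and library total, the 10m xNMJ libraries ranged from 0 to 0.415 with a median of 0.0163, and the 10m NMJ libraries from 2.46 to 7.1 with a median of 3.93. At 30 months, xNMJ libraries ranged from 0 to 0.576 (median 0.0393) and NMJ libraries from 1.32 to 4.45 (median 3.33). Every NMJ library thus lay above every xNMJ library at both ages, which was also so for 3.69% of all tested genes at 10 months and 4.11% at 30 months. Mean levels at 10 months were 4.2 ± 1.67 TPM at the synapse against 0.0716 ± 0.142 outside it, and at 30 months 3.11 ± 1.18 against 0.145 ± 0.214 (SD, n = 8). In raw counts, NMJ libraries held 98 to 432 Erbb3 counts at 10 months and 54 to 260 at 30 months, whereas 4 of 8 libraries of 10m xNMJ and 3 of 8 of 30m xNMJ held 0. Only 3 xNMJ libraries exceeded the floor of 3 counts, namely 10m xNMJ replicate 1 with 7 counts, 30m xNMJ replicate 1 with 11 and 30m xNMJ replicate 5 with 45.

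**Figure D1:**
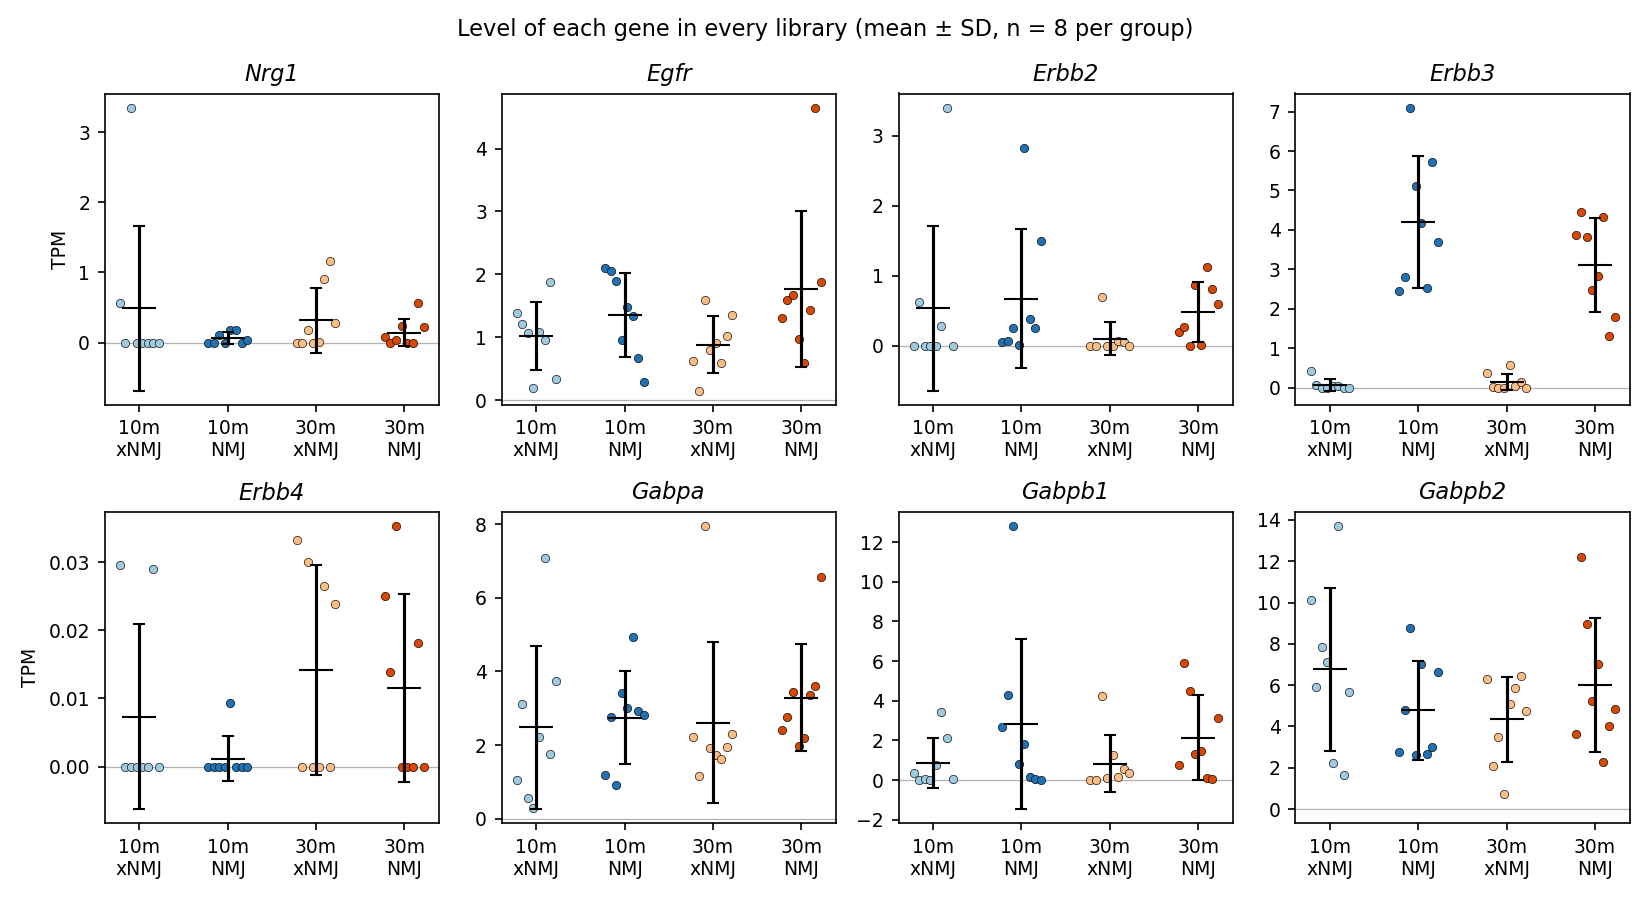
TPM of each of the 8 genes (vertical axes, scaled separately) in every library of the 4 groups, with the mean and SD (n = 8). Only for Erbb3 do the NMJ and xNMJ libraries separate at both ages, while Nrg1, Erbb2 and Gabpb1 are near 0 in many libraries and high in a few, and Erbb4 is near 0 throughout.

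In the fit of all 4 groups with edgeR's quasi-likelihood test, Erbb3 was higher in NMJ than in xNMJ by 5.79 on the log2 scale at 10 months (SE 0.89, adjusted p = 1.9e-05) and by 3.60 at 30 months (SE 0.76, adjusted p = 0.0016). It was the single call among the 6 tested genes of the set at each age, beside 11.5% of all 13990 tested genes called in either direction at 10 months and 9.26% at 30 months, and beside 6.5% and 5% called higher and 5.05% and 4.25% called lower. The size of the fold change is less secure than its direction, because the xNMJ side rests on few counts. Without 10m xNMJ replicate 1, which held 7 of the 11 counts of its group, the difference at 10 months was 7.23, and without 30m xNMJ replicate 5 that at 30 months was 4.60 (adjusted p = 0.00016). On the log2(TPM + 1) scale, which understates changes of low genes, it was 2.23 at 10 months and 1.80 at 30 months with limma.

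One extra-synaptic library stood apart and bears on the 30-month values. In 30m xNMJ replicate 5, the summed TPM of 6 synaptic N-box genes was 107, against 6.35 to 13.3 in the other 7 libraries of its group. It held 1062 of the group's 1063 Chrne counts and 45 of its 61 Erbb3 counts. At 13182475 counts it was the deepest library of the group, and its insert size of 130 bp lay above the 79 to 109 bp of the other 7. For the results between regions at 30 months that changed most without it, both values are given.

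The other receptors showed no such difference. Egfr, the receptor of EGF and related ligands, had 10 or more counts in every library. Its TPM ranged from 0.199 to 1.88 in 10m xNMJ (median 1.08), 0.293 to 2.1 in 10m NMJ (median 1.41), 0.155 to 1.6 in 30m xNMJ (median 0.856) and 0.585 to 4.65 in 30m NMJ (median 1.52), and the regions overlapped at both ages. The fitted difference between regions was 0.00 at 10 months (95% interval -0.82 to 0.81) and 0.35 at 30 months (SE 0.40, adjusted p = 0.69 in edgeR). The latter was 0.08 without 30m NMJ replicate 7, the library with the highest level, and up to 0.89 on the TPM scales.

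Erbb2, the kinase partner that binds no known ligand, was scattered rather than low throughout. It was at 0 in 5 of 8 libraries of 10m xNMJ, yet 10m xNMJ replicate 7 held 140 counts and 3.4 TPM, the highest level of any library. In 10m NMJ, levels ran from 0.0158 to 2.82 TPM (median 0.256), with 109 and 119 counts in replicates 8 and 5 and 1 to 15 in the other 6. In 30m xNMJ, 5 libraries were at 0 and the highest had 0.69 TPM, and in 30m NMJ levels ran from 0 to 1.12 (median 0.432). The regions overlapped at both ages, and the differences of -0.16 (SE 1.20, adjusted p = 0.96) and 1.87 (SE 1.30, adjusted p = 0.46) did not pass edgeR's test. The value at 10 months turned to 1.99 without 10m xNMJ replicate 7. Of the 17 counts of 30m xNMJ, 15 came from replicate 3, without which the difference at 30 months was 4.40 (adjusted p = 0.081 in edgeR). The 95% interval was -2.59 to 2.28 for the younger mice and -0.78 to 4.52 for the older ones, wide enough to hold a several-fold difference.

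Erbb4, the receptor with both a ligand and a kinase, was at the limit of detection. It held 0 to 3 counts in each of the 32 libraries, and 19 counts in all. Nrg1, the ligand gene, held 27 counts over the 8 libraries of 10m xNMJ, of which 24 came from replicate 3, and 9 over those of 10m NMJ. At 30 months the group totals were 18 in NMJ and 19 in xNMJ. In TPM, Nrg1 was at most 0.184 in 10m NMJ and 0.566 in 30m NMJ, and it was listed at 0 in 16 of the 32 libraries. When low genes were kept in the fit, neither Nrg1 (-2.96, SE 1.33, adjusted p = 0.18 at 10 months; -1.40, SE 1.27, adjusted p = 0.60 at 30 months) nor Erbb4 passed edgeR's test. The cell bodies of motor neurons lie in the spinal cord and outside the captured regions. Whether this bears on the Nrg1 counts was not tested. The motor axon markers Nefl, Nefm, Prph and Chat summed to medians of 0.319 TPM in 10m NMJ and 0.695 to 0.834 in the other groups.

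**Figure D2:**
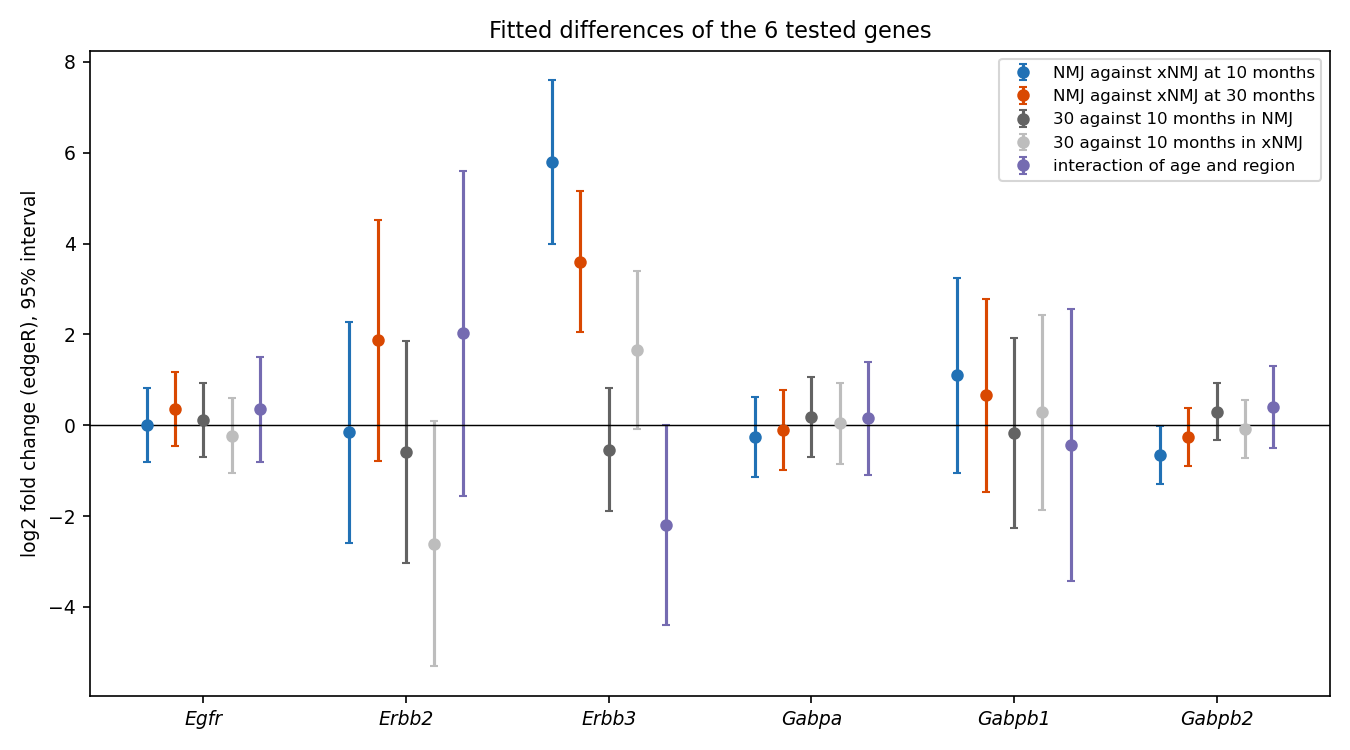
Fitted log2 fold changes (vertical axis, edgeR) with 95% intervals for the 6 tested genes in the 5 comparisons, the last of which is the difference between the 2 region differences. The intervals of Erbb3 for NMJ against xNMJ lie above 0 at both ages, and those of Erbb2 and Gabpb1 span several log2 units.

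The makeup of the receptor pool followed from these levels. For each library, the TPM of the 4 receptors was summed. The median sum at 10 months was 5.78 in NMJ against 1.21 in xNMJ, and at 30 months 5.46 against 1.12. Erbb3 made up 0 to 22.6% of this sum in 10m xNMJ (median 1.45%) and 49.2 to 86% in 10m NMJ (median 63.5%), without overlap. At 30 months it made up 0 to 38.9% in xNMJ (median 9.33%) and 19.5 to 82.6% in NMJ (median 65.9%), where the groups overlapped. The lowest NMJ share, 19.5%, belonged to 30m NMJ replicate 7, in which Egfr was at its highest level of 4.65 TPM. Mean shares of Erbb3 were 62.5 percentage points higher in NMJ at 10 months (66.6% against 4.15%, p = 0.00016 by two-sided exact permutation of 12870 splits, 0.00062 when adjusted for the 4 comparisons made) and 45.9 points higher at 30 months (59.4% against 13.5%, exact permutation p = 0.00062, adjusted p = 0.0012). Without 30m xNMJ replicate 5 the latter was 49.6 points. This share is built from the Erbb3 level itself and is not a second line of evidence. Egfr filled most of the remainder, with a mean of 80.8% ± 23.3 in 10m xNMJ and 79.8% ± 15.3 in 30m xNMJ (SD, n = 8), against 23.5% ± 14.6 and 31.6% ± 16.9 in the NMJ groups.

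**Figure D3:**
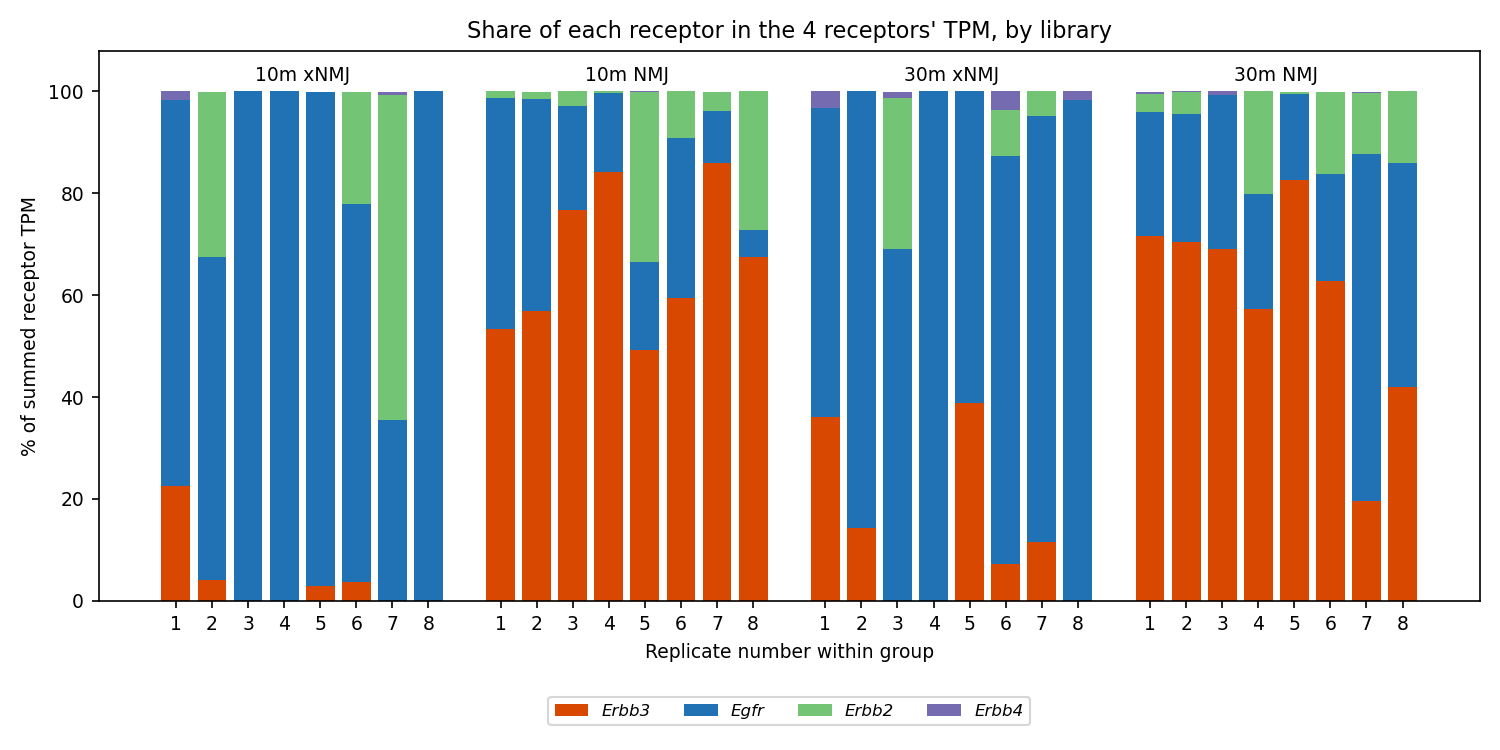
Share of each receptor gene in the summed TPM of the 4 receptor genes (vertical axis, %) in each of the 32 libraries, ordered by group and replicate number. Erbb3 fills 49.2 to 86% of the bar in 10m NMJ and 0 to 22.6% in 10m xNMJ, and Egfr most of the xNMJ bars.

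None of the GABP subunit genes passed the test in a comparison of regions. Gabpa, the DNA-binding subunit, was found in every library. Its TPM ranged from 0.296 to 7.09 in 10m xNMJ (median 1.99), 0.916 to 4.94 in 10m NMJ (median 2.87), 1.17 to 7.95 in 30m xNMJ (median 1.93) and 1.97 to 6.56 in 30m NMJ (median 3.06). The regions overlapped at both ages, with fitted differences of -0.26 (SE 0.43, adjusted p = 0.78) and -0.11 (SE 0.43, adjusted p = 0.93) in edgeR. The direction of these small values depended on the scale: with limma on log2(TPM + 1) they were 0.26 and 0.33.

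Gabpb2 was the more abundant of the β subunit genes in all but 3 of the 32 libraries. It ranged from 1.65 to 13.7 TPM in 10m xNMJ (median 6.51), 2.61 to 8.75 in 10m NMJ (median 3.90), 0.742 to 6.42 in 30m xNMJ (median 4.93) and 2.3 to 12.2 in 30m NMJ (median 5.05). Its difference between regions at 10 months, -0.66 (SE 0.32), had an unadjusted p of 0.044 and an adjusted p of 0.20 in edgeR, and at 30 months it was -0.26 (adjusted p = 0.71). The latter turned to 0.40 with limma on log2(TPM + 1).

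Gabpb1 behaved unlike the other subunits in its scatter between libraries. In 10m NMJ it held 151 counts and 12.8 TPM in replicate 3 but 1 to 3 counts in replicates 6, 7 and 8, and in 30m NMJ it held 86 counts in replicate 2 and 2 in replicates 6 and 7. In xNMJ it was at 0 in 2 of 8 libraries at each age and reached 3.43 TPM at 10 months and 4.22 at 30 months. The fitted differences of 1.10 (SE 1.06, adjusted p = 0.59) and 0.66 (SE 1.04, adjusted p = 0.79) lay well within this spread and ran from 0.34 to 1.62 and from 0.26 to 1.62 with 1 library left out. With insert size as a covariate, the value at 10 months turned to -0.78.

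The proportion of the subunits was compared as the log2 ratio of the β subunit genes, Gabpb1 and Gabpb2 together, to Gabpa, with 1 TPM added to each side. Its mean was 1.03 in 10m NMJ and 1.40 in 10m xNMJ, a difference of -0.36 (p = 0.54 by two-sided exact permutation, 0.88 when adjusted for the 4 comparisons made), which ran from -0.72 without 10m NMJ replicate 3 to -0.12 without 10m NMJ replicate 6. At 30 months the means were 0.957 and 0.768, a difference of 0.19 (exact permutation p = 0.66, adjusted p = 0.88), which was -0.10 when CPM replaced TPM. Gabpb2 made up a mean of 73.8% to 87% of the β subunit TPM in the 4 groups, and the range within 10m NMJ alone was 40.6 to 99.8%.

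Age moved none of the 6 tested genes past the threshold in NMJ, in xNMJ or in the interaction of age and region, by edgeR or by DESeq2. In edgeR the background was nearly as bare, with 0% of tested genes called between ages in NMJ, 0.0429% in xNMJ (0.0357% higher and 0.00715% lower at 30 months) and 0% for the interaction, while 372, 1322 and 708 genes had an unadjusted p under 0.05. DESeq2 called 51 of 13990 genes higher and 33 lower at 30 months in xNMJ, and 2 higher and 8 lower for the interaction. In NMJ, the difference of 30 from 10 months was -0.54 for Erbb3 (95% interval -1.90 to 0.83), 0.12 for Egfr (-0.69 to 0.93), -0.59 for Erbb2 (-3.03 to 1.85), 0.18 for Gabpa (-0.69 to 1.06), -0.17 for Gabpb1 (-2.26 to 1.93) and 0.30 for Gabpb2 (-0.33 to 0.94). The NMJ libraries of the 2 ages overlapped for each of these genes in TPM.

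By adjusted p, the 2 values nearest to the threshold were in xNMJ, where counts were lowest. Erbb3 differed by 1.66 between ages (SE 0.85, unadjusted p = 0.06, adjusted p = 0.56 in edgeR), but by 0.66 without 30m xNMJ replicate 5 and by 3.09 without 10m xNMJ replicate 1. Erbb2 differed by -2.61 (SE 1.33, unadjusted p = 0.058, adjusted p = 0.56), which was -0.47 without 10m xNMJ replicate 7, the library with 140 counts, and -5.14 without 30m xNMJ replicate 3. The interaction for Erbb3, the amount by which its region difference was smaller at 30 months, was -2.19 (95% interval -4.40 to 0.01, unadjusted p = 0.051, adjusted p = 0.97 in edgeR) and ran from -3.63 without 10m xNMJ replicate 1 to -1.19 without 30m xNMJ replicate 5. The Erbb3 share of receptor TPM was 7.25 points lower at 30 than at 10 months in NMJ (59.4% against 66.6%, exact permutation p = 0.43, adjusted p = 0.43) and 9.31 points higher in xNMJ (exact permutation p = 0.18, adjusted p = 0.23). With 1 library left out, the former ran from -10.6 to -1.55 points, the latter end without 30m NMJ replicate 7, and the xNMJ value from 5.67 without 30m xNMJ replicate 5 to 11.9 without 10m xNMJ replicate 1.

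The genes around the receptors were then read from lists of the pathway. Levels below are TPM and differences are log2 fold changes of NMJ over xNMJ from edgeR. Their medians are to be set beside that of all tested genes, which was 0 at 10 months and -0.01 at 30 months. The TPM scale puts more genes above 0: with limma on log2(TPM + 1) the median of all genes was 0.37 at 10 months and 0.49 at 30 months, with 2681 higher and 237 lower calls against 909 and 706 at 10 months, and 3501 and 60 against 700 and 595 at 30 months. Counts on that scale are therefore given beside those of edgeR where they differ.

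Among other ligands of the EGF family, 5 were tested (Egf, Btc, Tgfa, Hbegf and Nrg4), and edgeR called 0 at either age, with medians of -0.32 and 0.35. An unadjusted p under 0.05 was reached by 1 of the 5 at each age, DESeq2 called 1 at each age, and log2(TPM + 1) gave 1 and 2 higher. With the replicate number as a block, edgeR called Hbegf at both ages (2.12, adjusted p = 0.03, and 2.62, adjusted p = 0.014). Hbegf, heparin-binding EGF, a ligand of the EGF receptor and ErbB4, ran from 0.276 to 23.1 TPM in 10m xNMJ and 4.73 to 55.4 in 10m NMJ, with a difference of 1.74 (SE 0.66, adjusted p = 0.091). At 30 months its levels ran from 0 to 7.95 in xNMJ and 7.64 to 24.3 in NMJ, a difference of 1.95 (SE 0.68, adjusted p = 0.064) that became 2.71 and passed the threshold without 30m xNMJ replicate 5 (adjusted p = 0.0073 in edgeR). Egf was found in all libraries at group means of 5.01 to 8.58 TPM, and Nrg4 at means of 2.18 to 2.5 TPM, each above Nrg1 on this per-length scale.

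Of the 4 proteases that cut such ligands from the membrane, Adam19, which can process neuregulin, was higher in NMJ at 10 months. Its TPM ranged from 0 to 0.442 in 10m xNMJ and from 0.959 to 5.4 in 10m NMJ, without overlap, and the difference was 3.14 (SE 0.67, adjusted p = 0.0014 in edgeR). At 30 months its levels of 0.0164 to 1.41 in xNMJ and 0.645 to 4.86 in NMJ overlapped and the difference of 1.88 had an adjusted p of 0.058. Without a block, no protease was called by edgeR at 30 months, with 1 of 4 at an unadjusted p under 0.05 and 1 of 4 called by DESeq2. With the replicate number as a block, edgeR called Adam19 at 30 months (2.26, adjusted p = 0.037) and Adam10 at 10 months (2.15, adjusted p = 0.033). Without 30m xNMJ replicate 5, Adam10, a general ectodomain sheddase, passed the threshold at 30 months (2.07, adjusted p = 0.027 in edgeR), against 1.08 (adjusted p = 0.37) with it. On log2(TPM + 1), 3 of 4 were higher at each age. The list medians were 0.91 at 10 months and 0.73 at 30 months, the latter 1.12 without that library.

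Of 11 tested genes that carry the signal from the receptors, 1 was higher in NMJ at 10 months and 2 at 30 months, with medians of -0.06 and 0.16 (the latter 0.24 without 30m xNMJ replicate 5). On log2(TPM + 1) 4 and 7 were higher, with medians of 0.43 and 0.74, which are 0.06 and 0.24 relative to all genes. Map2k1, the kinase MEK1 of the Ras-ERK pathway, ranged from 0.336 to 25.1 TPM in 10m xNMJ and 37.2 to 129 in 10m NMJ, and from 0.19 to 27.9 in 30m xNMJ and 61.9 to 197 in 30m NMJ. The regions did not overlap at either age, and the differences were 2.31 (SE 0.61, adjusted p = 0.0089) and 3.31 (SE 0.64, adjusted p = 0.00058, or 4.27 without 30m xNMJ replicate 5) in edgeR. Erbin, a scaffold protein that binds ErbB2, was higher at 30 months by 1.06 (SE 0.33, adjusted p = 0.033), with 1.63 to 6.91 TPM in xNMJ and 6.71 to 23.5 in NMJ. At 10 months its difference was 0.94 with an adjusted p of 0.058 in edgeR, which was 0.049 with DESeq2 size factors and also 0.049 without 30m xNMJ replicate 5. The remaining transducers, such as Grb2, an adaptor of receptor tyrosine kinases (-0.21 and 0.29), were not called. Of 6 genes that limit ErbB signaling, among them Errfi1, Lrig1 and Cbl, edgeR and DESeq2 called 0 at either age, with 1 and 0 at an unadjusted p under 0.05 in edgeR and medians of 0.48 and 0.40, whereas 2 and 3 were higher on log2(TPM + 1).

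**Figure D4:**
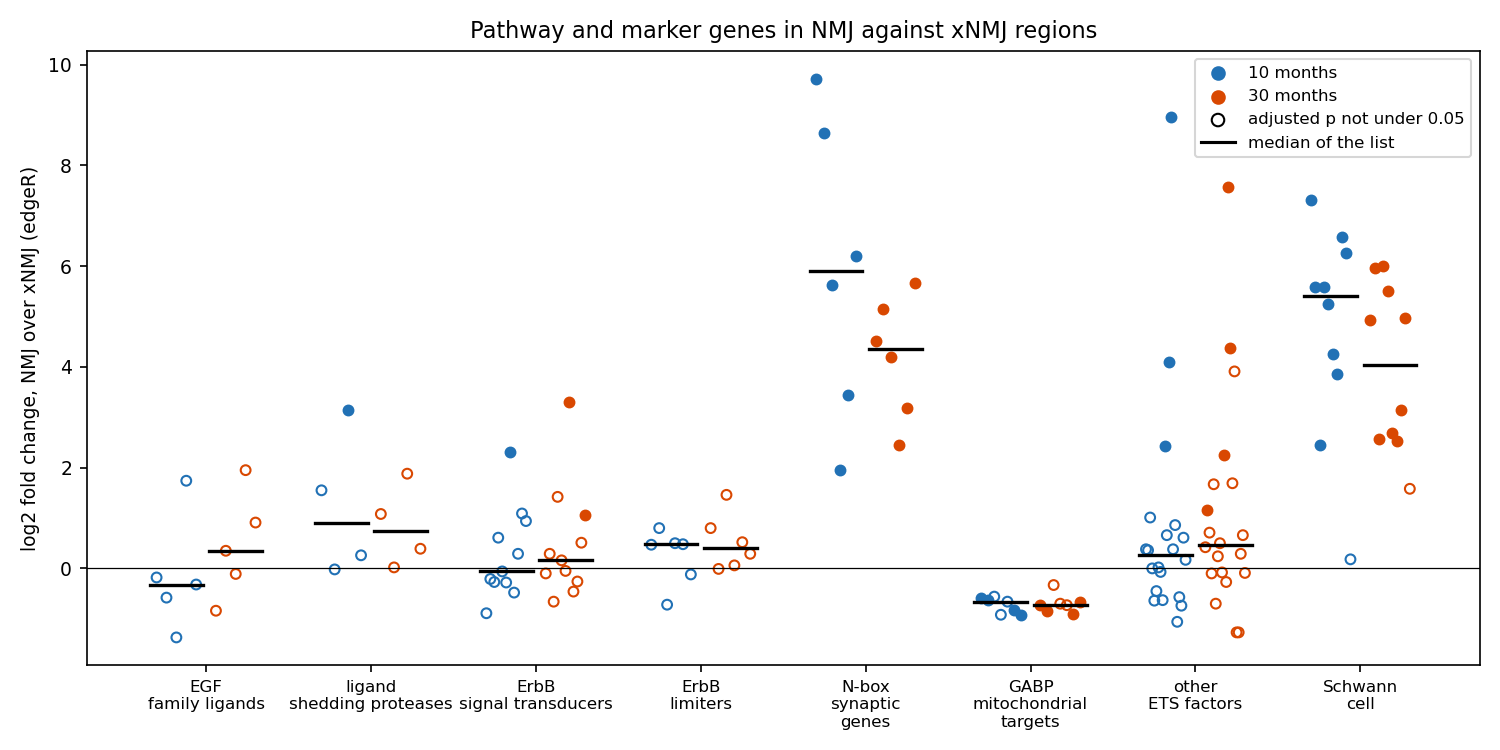
Log2 fold changes of NMJ over xNMJ (vertical axis, edgeR) for the tested genes of 8 lists at 10 and 30 months, with filled points for an adjusted p under 0.05 and a bar at the list's median. N-box synaptic genes and Schwann cell markers lie above 0, mitochondrial genes below 0 and most ligand, transducer and limiter genes around 0.

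Genes known as N-box or GABP targets at the synapse were higher in NMJ at both ages. All 6 (Chrne, Chrnd, Ache, Utrn, Musk and Colq) passed the test, with medians of 5.91 at 10 months and 4.35 at 30 months, the latter 6.09 without 30m xNMJ replicate 5. Because the regions were found by a ligand of the acetylcholine receptor, the receptor subunit genes check the capture more than they test the pathway. Chrnd, the δ subunit, ranged from 0 to 0.122 TPM in 10m xNMJ and 9.07 to 41.5 in 10m NMJ, and from 0 to 2.1 in 30m xNMJ and 13.8 to 39.7 in 30m NMJ. Ache, the enzyme that breaks down acetylcholine, ranged from 0.344 to 5.74 in 10m xNMJ and 55.2 to 157 in 10m NMJ, and was higher by 5.62 (SE 0.63) and 4.20 (SE 0.58, or 5.39 without 30m xNMJ replicate 5). Colq, the collagen tail that anchors it, was higher by 6.20 (SE 0.82) and 5.66 (SE 0.79, or 7.49 without that library), and Utrn, utrophin, which links the synaptic membrane to the cytoskeleton, by 1.95 (SE 0.32) and 2.44 (SE 0.32). Chrne itself was at 0 in 6 of 8 xNMJ libraries at each age and between 231 and 651 TPM in NMJ, with fitted differences of 9.72 and 4.51 (adjusted p = 3.8e-06 and 0.0018 in edgeR). The value at 30 months was 12.65 without 30m xNMJ replicate 5, a fitted value against a group that then held 1 count.

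Mitochondrial genes with known GABP sites moved the other way on the TMM scale. Of 7 tested, 0 were higher and 4 were lower in NMJ at both ages, with medians of -0.66 and -0.72. Cox4i1 and Cox5b, subunits of cytochrome oxidase, differed by -0.58 (SE 0.18, adjusted p = 0.033) and -0.63 (SE 0.20, adjusted p = 0.032) at 10 months and by -0.72 and -0.85 at 30 months. Sdhb, of succinate dehydrogenase, differed by -0.82 and -0.90, and Atp5b, of ATP synthase, by -0.93 (adjusted p = 9.7e-06 in edgeR) and -0.67. These counts depended on the scaling and the test. With DESeq2 size factors in edgeR, 1 of 7 (Atp5b) was called at 10 months and 4 at 30 months, with medians of -0.61 and -0.71. DESeq2's own test called 4 and 5 lower. With log2(TPM + 1), 1 and 0 were called, with medians of -0.19 and -0.11, which are -0.56 and -0.60 relative to all genes. The muscle fiber markers Acta1, Ckm and Tnnt3 were lower in NMJ as well, by -0.75 to -1.08 over both ages (3 of 4 markers, or 1 of 4 at each age with log2(TPM + 1)), and their part in the mitochondrial values was not tested. Tfam, the mitochondrial transcription factor whose promoter is a classical GABP target, was not called (-0.56, adjusted p = 0.19 and -0.33, adjusted p = 0.53), and its median TPM at 10 months was 16.4 in NMJ against 15.1 in xNMJ, and at 30 months 19.8 against 12.1. Its core is shown as an example of a mitochondrial promoter and lies at chr10:71238074-71238103 on the minus strand, 47 bases before the start.
Tfam: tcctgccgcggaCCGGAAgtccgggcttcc

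Other ETS factors, which read similar DNA cores, included the genes of the family with large differences between regions. Of 20 tested, 3 were higher at 10 months and 4 at 30 months (3 and 7 on log2(TPM + 1)), with medians of 0.27 and 0.46. Etv5, also known as ERM, ranged from 0 to 0.633 TPM in 10m xNMJ and 97.5 to 181 in 10m NMJ, without overlap, a difference of 8.95 (SE 0.97, adjusted p = 5.3e-08 in edgeR). At 30 months it ranged from 0.0518 to 25.1 in xNMJ and 122 to 196 in NMJ, with a difference of 4.38 (SE 0.75, adjusted p = 0.00012 in edgeR) that was 6.31 without 30m xNMJ replicate 5. Etv4 was higher by 4.09 (SE 0.83) and 7.58 (SE 1.04), and was at 0 in 6 and 7 of 8 xNMJ libraries, so that these fitted values rest on 24 and 3 counts. All 3 were in 30m xNMJ replicate 5, and the value of 9.93 (SE 1.42) without it is fitted against a group at 0 counts and gives no bound. Etv1 was higher by 2.42 (SE 0.36) and 2.26 (SE 0.36). Elf2 passed the threshold at 30 months (1.16, SE 0.37, adjusted p = 0.043) and had a value of 0.36 (adjusted p = 0.61) at 10 months. Fli1 had a value of -1.27 at 30 months (adjusted p = 0.065 in edgeR) and was lower by the test without that library (-1.43, adjusted p = 0.025). Between ages in xNMJ, Etv5 was higher at 30 months by 4.61 (SE 0.87, adjusted p = 0.031 in edgeR), a call that was lost without 30m xNMJ replicate 5 (2.67, adjusted p = 0.10), which held 1236 of the 1404 counts of its group. On the per-length scale, the mean level of Etv5 in NMJ, 141 and 155 TPM, was above those of Gabpa, 2.75 and 3.28.

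Because ErbB3 is a defining receptor of Schwann cells, the markers of the cell types that a captured region could hold were read in the same libraries. Of 10 Schwann cell markers, 9 were higher in NMJ at both ages, with medians of 5.42 and 4.04 (the latter 5.83 without 30m xNMJ replicate 5), and Ngfr was the exception (0.18 and 1.58, adjusted p = 0.93 and 0.26 in edgeR), although on log2(TPM + 1) all 10 were higher at 30 months. Their summed TPM was 4.47 to 16.8 in 10m xNMJ (median 8.07), 201 to 278 in 10m NMJ (median 249), 2.42 to 24.4 in 30m xNMJ (median 14.2) and 147 to 259 in 30m NMJ (median 206), and the most abundant gene was Pmp22, a myelin protein. Sox10, the transcription factor that defines the lineage, ranged from 0 to 0.788 TPM in 10m xNMJ and 3.85 to 11.6 in 10m NMJ, and from 0 to 0.277 in 30m xNMJ and 4.39 to 9.14 in 30m NMJ. It was higher by 5.58 (SE 0.81) and 6.00 (SE 0.83). Prx, which encodes periaxin, was higher by 6.26 and 4.98, the latter 5.80 without that library. Erbb3, at 5.79 and 3.60, thus rose together with both the Schwann cell markers and the N-box genes of the fiber, and the part of each cell type in the Erbb3 level cannot be told apart in a captured region. Nor can more cells of a type be told from more RNA per cell.

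Markers of other cell types moved less uniformly. Dcn and Pdgfra of fibro-adipogenic cells were higher at both ages (2 of 4 markers, medians of 1.73 and 1.43), and their summed TPM, nearly all of it Dcn, had NMJ medians of 689 and 665 at the younger and older age against 58.6 and 85.3 in xNMJ. Of 3 macrophage markers, 1 was higher at each age, Cd68 at 10 months and Adgre1 at 30 months (3 and 2 on log2(TPM + 1)), and their summed TPM medians were 2.18 and 20.7 at 10 months and 1.79 and 14.5 at 30 months in xNMJ and NMJ. None of 5 endothelial markers was higher in edgeR, and Cdh5 was lower at 30 months (-1.29, adjusted p = 0.0094 in edgeR), as was Rgs5 of 3 mural cell markers (-0.83, adjusted p = 0.034 in edgeR). On log2(TPM + 1) neither list had a lower call, and 1 endothelial marker was higher at 30 months. Neither of the 2 tested muscle stem cell markers, Pax7 and Cdh15, was called.

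Within the 16 NMJ libraries, Erbb3 was set against the mean log2 CPM of the Schwann cell markers and of the N-box genes, a pair of relations chosen after the values were seen. With the Schwann cell score, Pearson's r was 0.55 (permutation p = 0.028, adjusted p = 0.056 over 2 relations) and Spearman's rho 0.45 (permutation p = 0.08, adjusted p = 0.16), and r was 0.50 without the 2 libraries farthest from the median score. Within ages r was 0.27 at 10 months and 0.61 at 30 months (n = 8 each, permutation p = 0.58 and 0.11). With the N-box score r was 0.30 (permutation p = 0.26, adjusted p = 0.26) and rho 0.26 (permutation p = 0.33, adjusted p = 0.33), with 0.30 without the 2 farthest libraries and 0.49 and 0.12 within ages. Without the 2 farthest libraries of an age, the Schwann cell r was 0.10 at 10 months and 0.86 at 30 months, and the N-box r was 0.37 and turned to -0.79, so that the values within ages depend on those libraries. Neither relation passed the threshold after adjustment, and the difference between the 2 correlations was not tested. In the xNMJ library with the highest Erbb3 count, 30m xNMJ replicate 5, the N-box score of 4.29 was well above the next value of 1.26 in its group. Its Schwann cell score of 1.45 was above the next value of 0.0718. By summed TPM, however, its Schwann cell markers did not stand apart, at 22.3 against 24.4 in 30m xNMJ replicate 8.

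**Figure D5:**
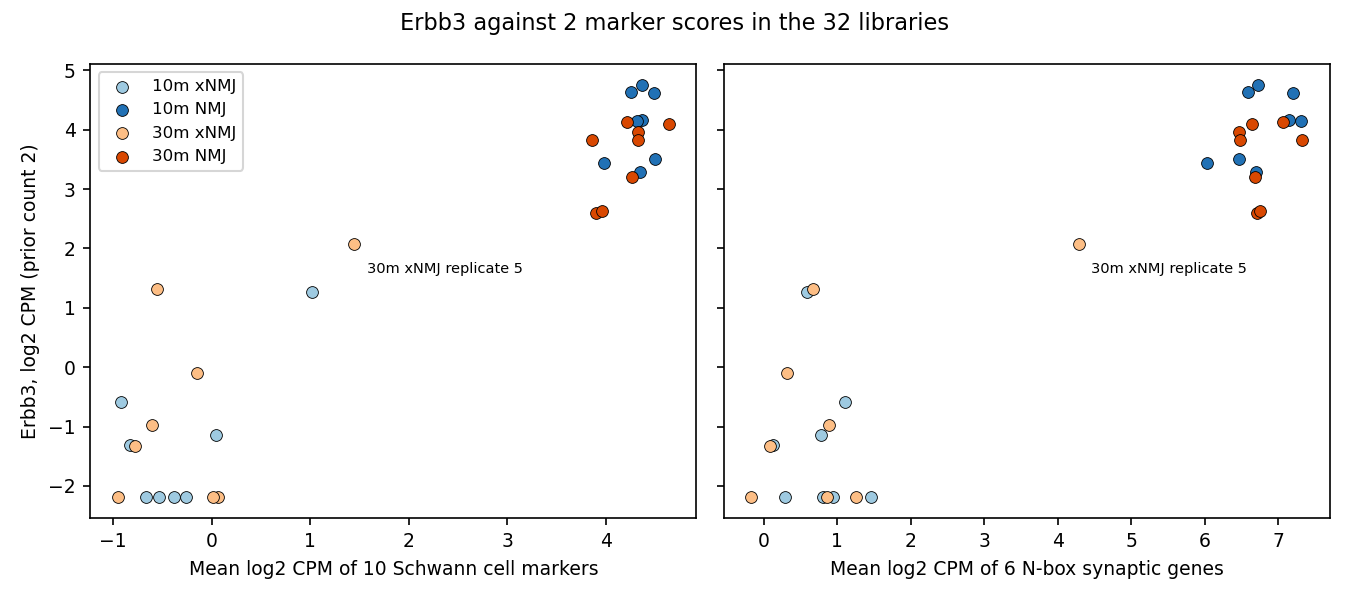
Erbb3 (vertical axis, log2 CPM) against the mean log2 CPM of 10 Schwann cell markers (left) and of 6 N-box synaptic genes (right) in the 32 libraries, colored by group. NMJ libraries form 1 cloud and xNMJ libraries another in both panels, with 30m xNMJ replicate 5 between them. On the left, 10m xNMJ replicate 1 (Schwann cell score 1.02, Erbb3 1.26) lies near that library.

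As a last description, the genes whose log2 CPM resembled that of each member most over the 32 libraries were listed among the 8951 tested genes whose mean level was 5 CPM or more. These correlations are across libraries that share the region effect and are given with no test. For Erbb3 the closest were Fxyd3 (r = 0.94), which encodes a regulator of the sodium pump, Kcna1 (r = 0.94), a potassium channel best known from axons that the list of Schwann cell markers used here includes, and Mt3 (r = 0.93), a metallothionein. The closest to the other genes were much less alike: Ppcdc (0.75), Orai1 (0.72) and Gm32017 (0.72) for Egfr, Kdm5b (0.63), Gaa (0.60) and Arhgef12 (0.60) for Erbb2, Tomm70a (0.59), Dnajc1 (0.57) and Abhd4 (0.55) for Gabpa, Plekha8 (0.61), Aco1 (0.59) and Gxylt1 (0.57) for Gabpb1, and Zadh2 (0.65), Mcmbp (0.58) and Letm1 (0.57) for Gabpb2.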

How the data were processed

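RNA from the captured regions was made into cDNA with a SMART-Seq v4 kit and sequenced from one end. Per the labels and the study's methods, the authors trimmed reads with Cutadapt 1.9.1 and assigned them by kallisto 0.43.1 to protein-coding transcripts of GRCm38, a read on n transcripts adding 1/n to each. The counts deposited by the authors are whole numbers per gene, not normalized and without strand. The TPM values deposited by the authors scale the same assignments for transcript length and library total. Reads shared between transcripts of related genes were split and not resolved.

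The count table was fitted in R 4.3.3 by edgeR 4.0.16 (TMM factors, quasi-likelihood fit of the 4 groups together, at least 1 CPM in at least 8 libraries, 13990 of 24952 genes), and two-sided p-values received a Benjamini-Hochberg adjustment across every tested gene, with a threshold of 0.05. Shares and ratios from TPM were compared by exact permutation over 12870 splits in Python 3.11.15. The correlations of Erbb3 with the marker scores used 100000 random permutations, with Spearman's rho from scipy 1.17.1. The alternatives used DESeq2 1.42.0 (its test, and its size factors in edgeR), limma 3.58.1 on log2(TPM + 1) and log2(TPM + 0.1), no filter on low counts, the 2 compared groups alone, insert size as a covariate, the replicate number as a block and each library left out. Figures were drawn with matplotlib 3.10.9.

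Sample labels gave the groups. The 8 genes and all lists were chosen with earlier results of these data known. Named were the 8 genes, list genes with an adjusted p under 0.05 between regions (the 4 with the smallest p where a list had more), and the 3 genes most like each tested member. Chrne, Musk, Hbegf, Adam10, Tfam, Ngfr, Sox10 and the other list genes named without a call or beyond those 4 were picked after their values were seen. Some markers of Schwann cells are not reported here by name. Positions came from GENCODE M21 (GRCm38).

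Library totals ranged from 4026648 to 16516788 counts, and 3 counts, the floor used, lay near 1 CPM or below. Insert sizes differed between regions. They ran from 79 to 108 bp in 10m xNMJ and from 109 to 131 bp in 10m NMJ, apart from 52 bp in 10m NMJ replicate 8. At 30 months they ran from 79 to 130 bp in xNMJ and from 101 to 129 bp in NMJ. Intervals cover the spread between libraries, and no molecular identifiers were used, so that reads may repeat a molecule. No 2 of 112 library pairs within groups agreed within sampling noise (chi-squared per gene of at least 24.5). On simulated data for NMJ against xNMJ at 10 months, 200 of 13694 genes were given a 4-fold change, of which the fit called 99 (49.5%), each with its true sign, beside 2 false calls.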

Additional observations from a re-analysis of the deposited data

Results flagged for a closer look

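In each group of 8 libraries, the highest and the lowest value of each of the 8 genes, of the Erbb3 share, of the GABP subunit ratio and of the 2 marker scores were checked for a gap to the nearest other library above Dixon's 95% limit. This marked 15 of 48 sets of 8 values, and most of them belong to genes with few counts. The limit marks about 1 in 20 sets by chance only where values follow a normal distribution. A set with 1 library above 0 is always marked, so the number marked does not measure an excess over chance.

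For the ligand and receptors, the marked libraries were 10m xNMJ replicate 3 with 3.35 TPM of Nrg1 (next 0.572), 30m NMJ replicate 7 with 0.566 TPM of Nrg1 and 4.65 TPM of Egfr (next 1.88), 10m xNMJ replicate 7 with 3.4 TPM of Erbb2 (next 0.625), 30m xNMJ replicate 3 with 0.69 TPM of Erbb2 (next 0.068) and 10m NMJ replicate 5 with 0.00939 TPM of Erbb4, the single library of its group above 0. In 10m xNMJ replicate 1, Erbb3 was at 0.415 TPM (next 0.0785) and made up 22.6% of the receptor TPM (next 4.07%).

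For the GABP genes, they were 30m xNMJ replicate 3 with 7.95 TPM of Gabpa (next 2.3) and 4.22 TPM of Gabpb1 (next 1.26), 30m NMJ replicate 8 with 6.56 TPM of Gabpa (next 3.61) and 10m NMJ replicate 3 with 12.8 TPM of Gabpb1 (next 4.31). 30m xNMJ replicate 3 was thus marked for Erbb2, Gabpa and Gabpb1.

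Of the scores, in mean log2 CPM, 10m NMJ replicate 1 had the lowest Schwann cell score of its group, 3.98 (next 4.26), and 30m xNMJ replicate 5 the highest Schwann cell score, 1.45 (next 0.0718), and N-box score, 4.29 (next 1.26), of its group.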

How the results depend on the processing

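The counts of called genes among the 8 (Erbb3 between regions at each age and 0 between ages or for the interaction) were the same under every alternative run. Erbb3 differed between regions by 2.23 to 6.47 at 10 months and by 1.80 to 5.30 at 30 months over 9 alternatives, and by 5.54 to 7.23 and 3.41 to 4.60 with 1 library left out. The share differences lay between 58.8 and 62.5 points at 10 months and 42.1 and 45.9 at 30 months, and 59.7 to 65.1 and 42.6 to 51.6 with 1 library left out.

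Values of genes that were not called changed sign. At 10 months between regions, Egfr was 0.04 with DESeq2, with its size factors and with insert size, 0.07 with no filter, 0.21 with log2(TPM + 1) and 0.40 with log2(TPM + 0.1). Erbb2 was 1.56 with the replicate block, 1.53 with the block and without 30m xNMJ replicate 5, 0.17 with log2(TPM + 1) and 0.81 with log2(TPM + 0.1). Gabpa was 0.00 with both blocks, 0.26 and 0.50 on the 2 TPM scales, and Gabpb1 -0.78 with insert size. At 30 months, Gabpa was 0.33 and 0.47 and Gabpb2 0.40 and 0.53 on the TPM scales, and Gabpa 0.02 with the block without 30m xNMJ replicate 5. Between ages, Gabpb1 was 0.70 with insert size, 0.00 with log2(TPM + 1) and 0.24 with log2(TPM + 0.1) in NMJ, and -0.82 and -0.03 in xNMJ with insert size and log2(TPM + 1). Erbb2 was 0.01 in NMJ with log2(TPM + 0.1). For the interaction, Gabpa was -0.02 with the block and -0.03 with log2(TPM + 0.1), and Gabpb1 1.52 with insert size, 0.03 and 0.22 on the TPM scales and 0.09 with the block without 30m xNMJ replicate 5. The subunit ratio at 30 months was -0.10 with CPM. The cause of these changes was not tested.

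With 1 library left out, ranges that crossed 0 were -0.15 to 0.14 for Egfr, -1.0 to 1.99 for Erbb2 and -0.42 to 0.14 for Gabpa between regions at 10 months, and -0.26 to 0.26 for Gabpa at 30 months. Between ages in NMJ they were -0.15 to 0.27 for Egfr, -0.91 to 0.26 for Erbb2 and -0.56 to 0.59 for Gabpb1, and in xNMJ -0.34 to 0.44 for Gabpa, -0.68 to 0.80 for Gabpb1 and -0.21 to 0.06 for Gabpb2. For the interaction they were -0.12 to 4.55 for Erbb2, -0.25 to 0.52 for Gabpa and -0.97 to 0.52 for Gabpb1. The subunit ratio ranged from -0.01 to 0.38 between regions at 30 months and from -0.32 to 0.28 between ages in NMJ.

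Same-numbered NMJ and xNMJ libraries did not meet the rule for pairs set here, that each correlate above 0.1. Their deviations correlated at -0.0016 to 0.19 at 10 months (4 of 8 above 0.1) and -0.018 to 0.37 at 30 months (1 of 8). Yet 4 of 8 libraries of each region correlated best with their own number at each age, more than a random order would give on average. The mean correlation was 0.089 and 0.081 for the same number against -0.013 and -0.011 for other numbers. Some pairing is thus likely, and the main tests between regions do not use it. Labels do not tie the numbers to animals, while the study's methods describe regions of both kinds as collected per sample. With the replicate block, 1032 genes were higher and 797 lower in NMJ at 10 months and 870 and 661 at 30 months, and Erbb3 was called at 6.47 and 4.68. The block changed no call of the 8 genes, of the shares (adjusted exact permutation p = 0.0078 at each age) or of the subunit ratio. Among list genes it added calls for Hbegf (2.12 and 2.62) at both ages, for Adam10, Erbin, Adgre1 (3.68) and Csf1r (2.02), higher, and Tfb2m (-0.70), lower, at 10 months, and for Adam19, higher, and Fli1 (-1.37), lower, at 30 months.

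Over all genes, DESeq2 called 51 higher and 33 lower at 30 than at 10 months in xNMJ against 5 and 1, and 2 and 8 for the interaction against 0. Fitting xNMJ alone gave 0 calls, insert size 1 and 1, the TPM scales 0, and leaving out a library 0 to 6 higher and 0 to 2 lower. Low counts of Nrg1, Erbb4, Erbb2 and Gabpb1 limit what the depth can show.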
